A study of Sus scrofa with 64 samples.

Results

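The fatty acid binding proteins are a family of small intracellular lipid carriers. The members studied here were FABP1 to FABP7, taken as every probe whose gene symbol in the platform annotation was one of these names. All 7 genes were found. FABP5 had 2 probes and each of the others had 1 probe, which gave 8 probes of the 23935 that measure pig transcripts. The names rest on that annotation, and no sequence of the probes was used. RefSeq gave the same symbols in its table for the Sscrofa11.1 assembly. In that table FABP4 and FABP5 lie on the same chromosome with 1 coding gene between them, PMP2, a myelin lipid binding protein that has no probe named for it here. No other pair of the 7 genes shares a chromosome.

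The data were 64 Affymetrix arrays of messenger RNA, with 16 tissues sampled from the same 4 pigs. The animals were a Large White male (LWM) of 38.8 kg and a Large White female (LWF) of 36.2 kg, both 87 days old, and an Iberian male (IBM) of 25.4 kg and an Iberian female (IBF) of 32.8 kg, both 89 days old. They were kept together from weaning on the same feed and none had a treatment. Values of single arrays are given in the order LWM, LWF, IBM and IBF. The LWM pineal array and the LWF abdominal fat array stood apart in marker genes, and several results that rest on them are also given without them. Other arrays stood apart in some markers too. The mean of 5 hepatocyte genes was 7.66 in the IBM neurohypophysis, against 5.15 to 5.34 in the other animals. That of 4 gastric epithelium genes was 7.22 in the IBM blood, against 4.65 to 4.88. The IBF stomach array is described with FABP3. Breed and sex were each represented by 2 animals, and the p-values of these contrasts describe the spread between the arrays of these 4 pigs.

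Fatty acid binding proteins fold into a barrel that holds a long chain fatty acid or another lipid in its cavity and carry it through the cytosol to membranes, to mitochondria or to nuclear receptors. The members are named after the tissue of their discovery: liver (FABP1), intestine (FABP2), heart and muscle (FABP3), adipocyte (FABP4), epidermis (FABP5), ileum (FABP6) and brain (FABP7). FABP6, the ileal bile acid binding protein or gastrotropin, differs from the rest in that bile acids are its main ligands. FABP4 is also known from endothelial cells and macrophages, and FABP7 from radial glia and astrocytes.

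Levels are RMA values on a log2 scale, where a difference of 1 is a doubling of the signal. The scale ran from 1.78 to 14.47 over all arrays, with a median of 5.47. The file holds no detection calls. For orientation at the low end, the 64 reporter probe sets on the array, which measure reporter genes rather than pig genes, had a median of 2.91 and quartiles of 2.59 and 3.37. Levels of different probes are not compared with each other. Values are mean ± SD over arrays, with 4 arrays for a tissue. Tissues, breeds and sexes were compared by limma over all 64 arrays, with p-values adjusted over all 23935 probes and a false discovery rate of 0.05. Each probe has 1 spread pooled over all tissues, so an SE, interval or p-value need not describe the spread within a single tissue.

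In these contrasts the family divided into a group of genes that were high in few tissues and a group with graded levels over many. FABP6 and FABP2 were high in ileum alone, FABP1 in liver and ileum, and FABP7 in olfactory bulb, pineal gland and hypothalamus. FABP3 and FABP5 were highest in fat and muscle, FABP4 was highest in fat with thyroid gland and muscle next, and all 3 spanned a wide range of levels elsewhere. Of the 128 contrasts of a probe in a tissue against the mean of the other tissues, 32 were higher, against 22.8% of contrasts over all probes, and 67 were lower, against 27.4%. The lower calls of FABP1, FABP6 and FABP7 are set by their few high tissues, which enter the mean of the others. Of the 960 comparisons of a probe between pairs of tissues, 563 passed, against 46.4% over all probes. The distance between the highest and the lowest tissue was 4.33 for FABP2, 5.06 for the dimmer FABP5 probe and between 7.09 and 10.49 for the other 6 probes, beside a median of 1.74 over all probes.

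**Figure D1:**
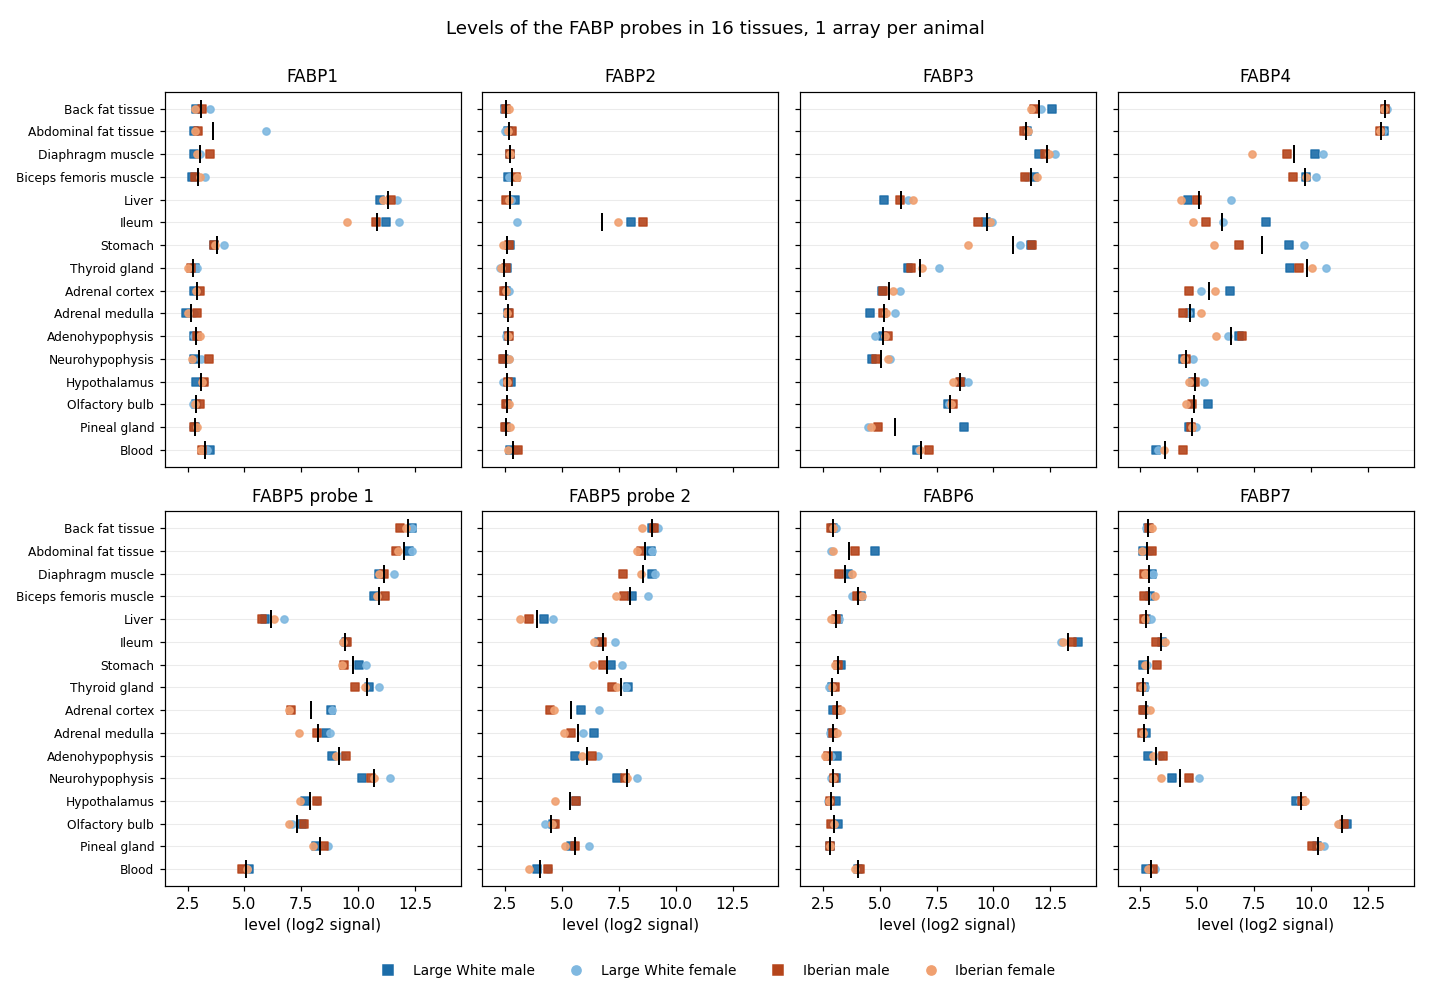
Levels (log2 signal) of the 8 FABP probes in 16 tissues. Each point is the array of 1 animal and the black bar is the mean of 4 arrays. FABP6 reaches 12.97 to 13.72 in ileum and stays at or below 4.78 elsewhere, while FABP4 runs between 3.20 in blood and 13.35 in back fat.

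FABP1, the liver form and a carrier of fatty acids in hepatocytes and enterocytes, had 10.96, 11.69, 11.43 and 11.11 in liver and 11.22, 11.77, 10.78 and 9.50 in ileum. All 8 arrays lay above every array of the other tissues. The mean was 11.06 ± 0.71 (SD, n = 8) in liver and ileum, against 3.05 ± 0.51 (SD, n = 56) in the other 14 tissues, a difference of 8.01 (SE 0.18, adjusted p = 2.5e-39). The lower mean lies among the reporter probe sets, so no fold is given. Liver and ileum themselves did not differ beyond the spread, with liver higher by 0.48 (95% interval -0.20 to 1.16, adjusted p = 0.26) and in 2 of 4 animals. The next tissue in the order was stomach with 3.67, 4.10, 3.66 and 3.70, which lay 7.04 below ileum (adjusted p = 7.1e-24). Below stomach no neighbours in the order differed, down to 2.66 ± 0.23 in adrenal medulla (SD, n = 4). Some low tissues further apart did differ, since 38 of the 120 pairs passed for FABP1, more than those with liver or ileum.

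A single array stood apart among the low tissues. Abdominal fat had FABP1 levels of 2.78, 5.93, 2.96 and 2.84, and the high value was that of LWF. On the same array ALB, the hepatocyte product albumin, was 11.04, against 4.39 to 5.74 in the abdominal fat of the other animals and 14.08 to 14.15 in liver. TTR, another secreted liver protein, was 6.67 there, against 3.84 to 4.12 in the other 3 animals. APOA4, an apolipoprotein of liver and intestine, was 6.13, against 3.31 to 3.70. The mean of 5 hepatocyte genes was 9.01 on that array and 5.21 to 5.69 on the other abdominal fat arrays. VIL1, an enterocyte gene, was 3.85 there and 3.42 to 3.72 in the others, far below its level in ileum. The part of liver RNA in this value was not tested. Without this array the contrast of liver and ileum for FABP1 was 8.06.

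FABP6 in ileum stood further from the other tissues than any other gene of the family. Its 4 ileum arrays had 13.72, 12.97, 13.44 and 13.06, and the lowest of them stood 8.19 above the highest array of any other tissue. Ileum exceeded the other tissues by 10.12 (SE 0.13, adjusted p = 1.3e-49). Blood followed with 4.04 ± 0.09, biceps femoris with 4.04 ± 0.19 and abdominal fat with 3.63 ± 0.90 (SD, n = 4 each), and below ileum no neighbours in the order differed. Some tissues further apart did differ, since 58 of the 120 pairs of tissues passed for FABP6, more than those that involve ileum. Liver, whose bile acids reach the ileum, had 3.18, 3.23, 3.09 and 2.87, within the range of the reporter probe sets' upper and lower quartiles. Tissue accounted for 99.1% of the sum of squares of FABP6, beside a median of 81.5% over all probes.

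FABP2, the intestinal form that binds fatty acids in enterocytes, was likewise high in no tissue but ileum, and there in 3 of 4 animals. The ileum levels were 8.01, 3.01, 8.56 and 7.44, whereas the 60 arrays of the other tissues had at most 3.06. LWF thus had FABP2 at the level of tissues without signal, while the other 3 ileum arrays lay far above all of them. Ileum exceeded the other tissues by 4.13 (SE 0.32, adjusted p = 2.2e-16), and by 5.37 without the LWF ileum array. The spread of FABP2 in ileum, an SD of 2.54, was the widest of any gene of the family in any tissue. The SE, pooled with tissues where FABP2 was low, does not describe it.

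The LWF ileum array did not stand apart for the other intestinal members. FABP1 was 11.77 there, the highest of the 4 ileum arrays, and FABP6 was 12.97, the lowest of 4 but within 0.75 of the highest. VIL1, which encodes the microvillus protein villin, was 10.20 in LWF, below the 11.22 of LWM and the 10.44 of IBM and above IBF. APOA4 was lowest in LWF with 5.32, against 9.12, 7.91 and 6.66 in the others. MTTP, which loads lipid on lipoproteins, was 7.35 in LWF and 8.74, 8.37 and 7.45 in the others. The mean of these 3 enterocyte genes was 7.62 in LWF and 8.04 to 9.70 in the other ileum arrays. These genes, 3 of 6 listed, do not single out ileum, as their mean was 8.56 there and 8.92 in liver. The part of the cell make-up of the sample in the low FABP2 value was not tested, and in whole tissue fewer cells of a type and less RNA per cell cannot be told apart.

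**Figure D2:**
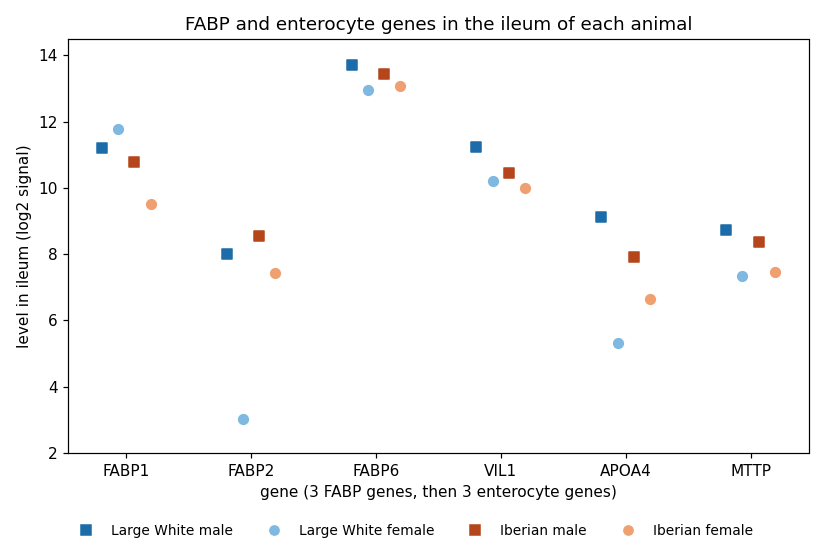
Levels (log2 signal) in ileum of FABP1, FABP2 and FABP6 and of the enterocyte genes VIL1, APOA4 and MTTP, 1 point per animal. FABP2 of the Large White female lies at 3.01, whereas FABP1 (11.77) and VIL1 (10.20) of the same array lie within or above the range of the other animals.

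The ileum differences of FABP2 between breeds and sexes depended on that array to different degrees. FABP2 was lower in Large White than in Iberian ileum by 2.49 (adjusted p = 0.038), although 8.01 of LWM lay within the Iberian values of 8.56 and 7.44, and without the LWF ileum array the difference was -0.02 (adjusted p = 1.0). Males exceeded females in ileum by 3.06 (adjusted p = 0.0016), with 8.01 and 8.56 in males and 3.01 and 7.44 in females. Without the LWF ileum array 1 female was left in ileum, and the spread was pooled with tissues where FABP2 was low. The sex difference was then 0.86. With LWF left out in all tissues it was 0.86 and did not pass (adjusted p = 0.089), and it did not pass with LWM (3.17, adjusted p = 0.24) or IBM (2.95, adjusted p = 0.56) left out.

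FABP3, the heart and muscle form that serves fatty acid oxidation in muscle fibres, had 12.02, 12.69, 12.28 and 12.43 in diaphragm and 11.76, 11.44, 11.38 and 11.93 in biceps femoris. The muscles exceeded the mean of the other tissues by 4.38 (SE 0.25, adjusted p = 1.5e-21). They were not alone at this level, since back fat had 12.56, 12.08, 11.77 and 11.65, and abdominal fat had 11.47, 11.49, 11.32 and 11.50. The fat arrays overlapped those of both muscles. Back fat lay between the muscles, 0.34 below diaphragm (adjusted p = 0.62) and 0.39 above biceps femoris (adjusted p = 0.50). Diaphragm was higher than biceps femoris in 4 of 4 animals, by 0.72 (95% interval -0.22 to 1.67, adjusted p = 0.27), which did not pass.

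Stomach and ileum followed for FABP3. Stomach had 11.65, 11.15, 11.67 and 8.88, so that IBF lay far below the other 3 animals. In the IBF stomach VIL1 was 9.51, against 6.73, 6.07 and 4.48 in the others, and TTR was 5.79, against 7.92 to 8.12. The mean of 4 gastric epithelium genes was 13.33 in IBF and 12.96 to 13.20 in the others. Their part in the FABP3 value was not tested. Ileum had 9.68, 9.93, 9.34 and 9.86. The step from ileum to hypothalamus, at 8.54 ± 0.27, passed the test (1.16, adjusted p = 0.035), as did that from olfactory bulb, at 8.10 ± 0.10, to blood, at 6.81 ± 0.24 (1.28, adjusted p = 0.013, SD, n = 4 each). The lowest tissue means were in the hypophysis, with 5.13 ± 0.24 in adenohypophysis and 5.07 ± 0.38 in neurohypophysis (SD, n = 4 each). That order rests on the LWM pineal array, which had 8.72 and raised the pineal mean to 5.68. The pineal arrays of the other 3 animals had 4.47, 4.91 and 4.60, and 4.47 was the lowest of all 64 arrays. From the highest to the lowest tissue mean FABP3 covered 7.28 log2 units, and 91 of its 120 pairs of tissues differed.

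FABP4, the adipocyte form that carries fatty acids in fat cells, reached 13.23, 13.35, 13.26 and 13.19 in back fat and 13.18, 13.15, 13.01 and 13.03 in abdominal fat. These levels lie close to the top of the scale. Back fat was higher than abdominal fat in 4 of 4 animals, by 0.17 (95% interval -0.85 to 1.18, adjusted p = 1.0), which did not pass. The interval uses the spread of FABP4 over all tissues, while the SD was 0.07 in back fat and 0.09 in abdominal fat. The fats exceeded the mean of the other tissues by 6.95 (SE 0.27, adjusted p = 2.3e-28) or 124-fold. The step to the next tissue, from abdominal fat to thyroid gland, was 3.28 (adjusted p = 4.3e-07).

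Outside fat FABP4 formed a middle group. Thyroid gland had 9.08, 10.67, 9.47 and 10.03, biceps femoris had 9.76, 10.20, 9.19 and 9.75, and diaphragm had 10.19, 10.52, 8.93 and 7.39. Neighbours in the order among these 3 tissues did not differ beyond their spread. Stomach (7.83 ± 1.85) was lower than diaphragm by 1.43 (adjusted p = 0.019), and adenohypophysis (6.49 ± 0.53) was lower than stomach by 1.34 (adjusted p = 0.029), in 2 of 4 animals. FABP4 was lowest in blood, with 3.20, 3.27, 4.36 and 3.55. Within the hypophysis it was higher in the adenohypophysis than in the neurohypophysis by 1.97 (SE 0.51, adjusted p = 0.0028) and in 4 of 4 animals, a call lost with IBM left out (1.81, adjusted p = 0.057).

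The markers of fat cells followed FABP4 in some of these tissues and not in others. ADIPOQ, the adipocyte hormone adiponectin, was 11.59 to 12.25 in back fat and 10.54 to 11.79 in abdominal fat. In thyroid gland ADIPOQ was 3.57, 7.49, 4.29 and 6.09, which places the 4 animals in the same order as FABP4. The LWM thyroid, with the lowest ADIPOQ of the 4, still had FABP4 at 9.08. In diaphragm ADIPOQ was 6.25, 3.66, 4.86 and 3.87, and LWF, with the lowest of them, had the highest FABP4, 10.52. In stomach ADIPOQ was 3.48 to 3.79 on all 4 arrays while FABP4 spanned 5.75 to 9.70. The mean of 6 endothelial genes was 7.23 to 7.51 in thyroid gland, 7.31 to 8.06 in biceps femoris, 7.71 to 8.33 in diaphragm and 6.09 to 6.80 in stomach. It was 7.78 to 8.68 in the fats and 5.33 to 5.45 in blood, the tissue with the lowest FABP4. The order was not the same throughout. Adrenal medulla (7.01), adrenal cortex (6.95), neurohypophysis (6.91) and liver (6.88) had higher endothelial means than stomach (6.49), while FABP4 averaged 4.69 in adrenal medulla, 4.52 in neurohypophysis and 5.08 in liver and was 4.63 to 6.45 in adrenal cortex, against 7.83 in stomach. Neurohypophysis also had a higher endothelial mean than adenohypophysis (6.10) and a lower FABP4. Which cells carried FABP4 outside fat was not tested.

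**Figure D3:**
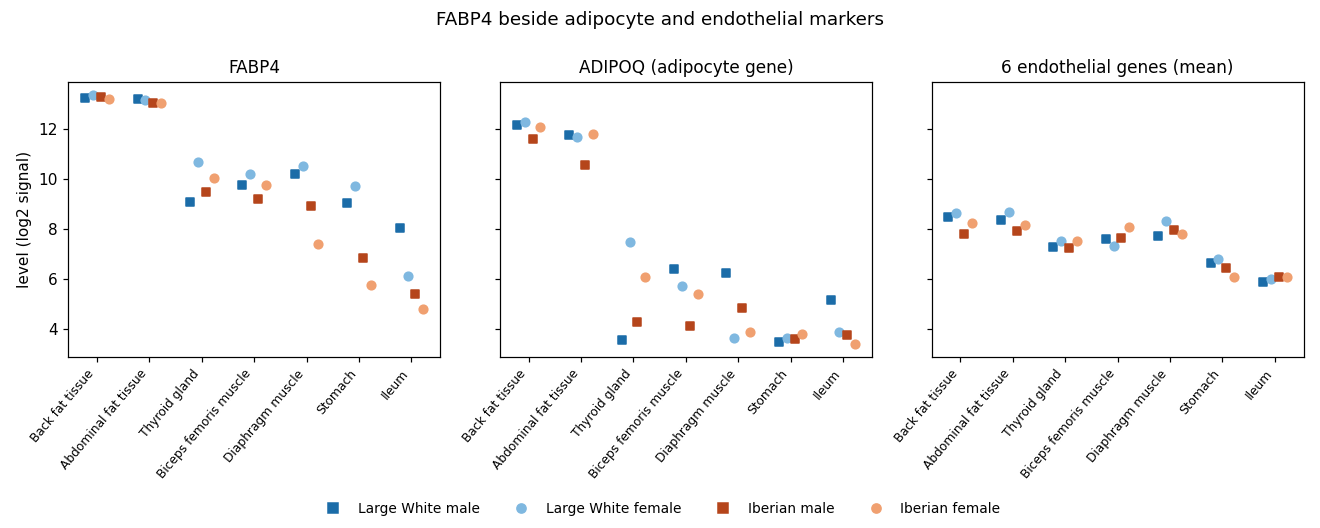
Levels (log2 signal) of FABP4, of the adipocyte gene ADIPOQ and of 6 endothelial genes (mean) in 7 tissues, 1 point per animal. In stomach FABP4 is 9.04 and 9.70 in the Large White animals and 6.83 and 5.75 in the Iberian animals, while ADIPOQ lies between 3.48 and 3.79 in all 4.

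FABP5, the epidermal form that delivers fatty acids to nuclear receptors in skin, fat, endothelium and other tissues, was graded over the tissues, with 102 of 120 pairs of tissues called on 1 probe and 101 on the other. Its brighter probe (probe 1) had 12.36, 12.35, 11.85 and 12.12 in back fat, and 12.24, 12.34, 11.67 and 11.73 in abdominal fat. The fats exceeded the mean of the other tissues by 3.34 (SE 0.14, adjusted p = 1.6e-26) or 10.1-fold, and on probe 2 by 2.62 (SE 0.15, adjusted p = 2.2e-21). Both probes gave 7 tissues higher and 7 lower than the others, and their tissue means correlated at r = 0.98 over 16 tissues. The muscles followed, with 11.13 ± 0.30 in diaphragm and 10.91 ± 0.21 in biceps femoris on probe 1 (SD, n = 4 each). On probe 1 abdominal fat exceeded diaphragm by 0.87 in 4 of 4 animals (adjusted p = 0.0076). On probe 2 this difference was 0.10 (95% interval -0.46 to 0.67, adjusted p = 0.81), with abdominal fat higher in 1 of 4 animals.

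The neurohypophysis stood next with 10.17, 11.40, 10.58 and 10.70 on probe 1, and the thyroid gland with 10.39 ± 0.45. Neurohypophysis, the posterior lobe made of nerve endings and glia, exceeded adenohypophysis, the hormone-secreting anterior lobe, by 1.55 on probe 1 (adjusted p = 1.1e-05) and by 1.75 on probe 2 (adjusted p = 2.7e-06), in 4 of 4 animals on both. FABP4 ran the other way between the same lobes. Neurohypophysis also exceeded hypothalamus, by 2.85 on probe 1 (adjusted p = 1.0e-12). At the low end were liver, with 5.92, 6.72, 5.75 and 6.29, and blood, with 5.20, 5.13, 4.88 and 5.11. Each was below its upper neighbour on probe 1, liver by 1.14 below olfactory bulb (adjusted p = 2.9e-04) and blood by 1.09 below liver (adjusted p = 3.5e-04). On probe 2 liver and blood came in the reverse order, with 3.88 ± 0.66 in liver and 4.05 ± 0.41 in blood (SD, n = 4 each).

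FABP7, the brain form that binds docosahexaenoic acid, was high in 3 neural tissues. Olfactory bulb had 11.57, 11.23, 11.46 and 11.18, pineal gland had 10.26, 10.55, 10.04 and 10.40, and hypothalamus had 9.32, 9.50, 9.59 and 9.74. The 3 tissues did not overlap each other, and each step in their order passed the test. Olfactory bulb exceeded pineal gland by 1.05 (adjusted p = 1.4e-05) and pineal gland exceeded hypothalamus by 0.77 (adjusted p = 0.0011). Together they were 10.40 ± 0.80 (SD, n = 12), against 2.98 ± 0.49 (SD, n = 52) in the other tissues, a difference of 7.42 (SE 0.08, adjusted p = 6.1e-53). The lower mean is again at the level of the reporter probe sets.

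The neurohypophysis stood next for FABP7, with 3.87, 5.07, 4.63 and 3.41. It was 5.29 below hypothalamus (adjusted p = 3.3e-29), 0.83 above ileum, its next neighbour, in 3 of 4 animals (adjusted p = 1.5e-04), and 1.05 above adenohypophysis in 4 of 4 animals (adjusted p = 1.4e-05). The mean of 5 genes of astrocytes and radial glia was 10.48 to 10.81 in olfactory bulb, 10.59 to 11.18 in hypothalamus, 8.94 to 10.52 in pineal gland, 6.73 to 7.36 in neurohypophysis and 5.75 to 6.39 in adenohypophysis. The order of these glial genes over olfactory bulb, pineal gland and hypothalamus was not that of FABP7, which had its lowest level of the 3 in hypothalamus.

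The LWM pineal array went against its label in the 1 pineal marker with a probe. SAG, the arrestin of photoreceptors and pinealocytes, was 5.09 on it, against 8.08 to 10.36 in the pineal glands of the other animals and 4.57 to 5.94 in all other tissues. The mean of 5 neuron genes was 10.47 on it and 9.11 to 9.20 in the other pineal glands, and that of the glial genes was 10.52 on it and 8.94 to 9.24 in the others. Pineal FABP3 was 8.72, 4.47, 4.91 and 4.60, so that LWM lay within the hypothalamus range of 8.21 to 8.87 and the other 3 animals far below it. MOBP, a myelin gene of oligodendrocytes, was 11.35 in the LWM pineal gland, against 3.74 to 5.58 in the other 3 animals and 11.98 to 12.26 in hypothalamus. The mean of 3 myelin genes was 8.66 in the LWM pineal gland and 4.76 to 5.26 in the others. FABP7 of the same array, 10.26, lay within the pineal values of the other animals, 10.04 to 10.55, and above all hypothalamus values. Without this array the difference of FABP7 between the 3 neural tissues and the others was 7.43. In the paper this array was the only apparent outlier sample and clustered with hypothalamus, and the paper held contamination to be unlikely. The part of brain tissue in the FABP3 value was not tested.

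**Figure D4:**
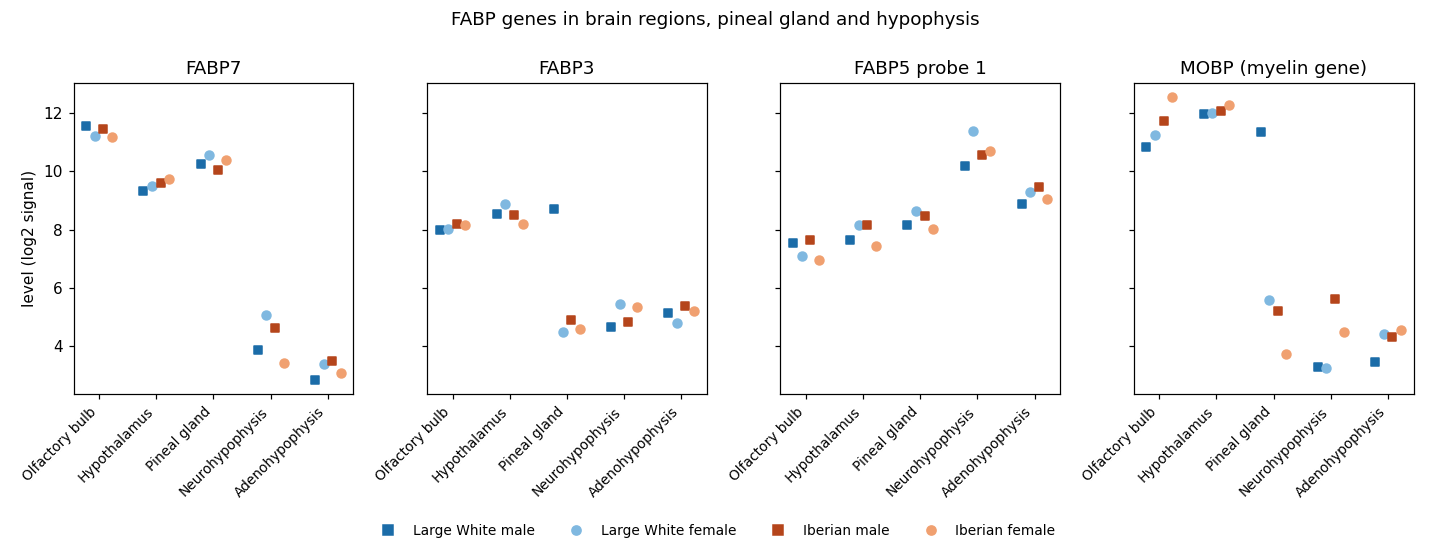
Levels (log2 signal) of FABP7, FABP3 and FABP5 (probe 1) and of the myelin gene MOBP in 5 neural and hypophyseal tissues, 1 point per animal. The LWM pineal array has FABP3 at 8.72 and MOBP at 11.35, far above the other pineal glands, and FABP7 at 10.26 among them.

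A probe was called extreme in a tissue where all 4 of its arrays lay above, or all 4 below, the 60 arrays of the other tissues, the measure of tissue specificity used for this study. This held in 4 of the 128 cases of a FABP probe and a tissue, against 1.73% over all probes. FABP6 was extreme in ileum by a margin of 8.19, FABP7 in olfactory bulb by 0.63, and the brighter FABP5 probe, on the low side, in blood by 0.55. FABP4 was extreme in back fat by 0.01 above abdominal fat, and fell out where a margin of 0.5 was asked. FABP2 was not extreme in ileum, because of the LWF array, and FABP1 was extreme in no tissue, as liver and ileum overlapped. In all, 4 of 8 probes were extreme in a tissue, beside 26.3% of all probes.

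Over the 16 tissue means FABP2 and FABP6 correlated at r = 0.996, both being high in ileum and low elsewhere. FABP4 and FABP5 correlated at r = 0.83 on probe 1, FABP3 and FABP4 at 0.74, FABP3 and FABP5 at 0.60, and FABP1 with FABP2 at 0.67 and with FABP6 at 0.65. FABP7 was negatively correlated with FABP4 (r = -0.40). These correlations are descriptions over 16 tissues that share animals and arrays. Among all other named genes, those with the pattern most like FABP1 were PDZK1 (r = 0.994), a scaffold of apical membranes, ANKS4B (0.984) of the brush border and APOB (0.969), the structural protein of triglyceride-rich lipoproteins. FABP6 and FABP2 shared PI3 (0.998 and 0.996) and SPAI-2 (0.998 and 0.997), protease inhibitors of related sequence. LGALS2, a galectin, followed for FABP6 (0.996) and MEP1B, a brush border protease, for FABP2 (0.996).

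For FABP4 the most similar patterns were those of LAMC1 (r = 0.946), a laminin chain of basement membranes, MYOC (0.938) and ASPN (0.937), an extracellular matrix protein. FABP5 ran with LUM (0.941), CCDC80 (0.925) and DCN (0.919), of which lumican and decorin are proteoglycans of connective tissue. FABP7 ran with CDC42 (0.983), GFAP (0.978), the intermediate filament of astrocytes, and FEZ1 (0.974), a protein of axon growth. FABP3 had no close counterpart. Its highest values were 0.882 with NVL, 0.881 with ATF4, a stress response factor, and 0.873 with CAV1, the coat protein of caveolae.

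The FABP genes act beside enzymes and receptors that take up, store, burn or export fatty acids, and 59 of 84 such genes on the lists used had a probe named for them here. In the fats 31 of 59 were higher than in the other tissues, against 22.8% of all probes, and 16 were lower, against 33.0%. Storage and lipolysis genes gave 6 higher and 2 lower of 10, with a median difference of 2.03, beside -0.08 over all probes. LIPE, the hormone-sensitive lipase, was 10.84 ± 0.27 in the fats (SD, n = 8) and 4.76 ± 0.89 elsewhere (SD, n = 56), a difference of 6.08 (adjusted p = 2.0e-37), and DGAT2, which completes triglycerides, was higher by 5.41 (adjusted p = 1.8e-29). PPARG, the receptor that drives fat cell genes and is a known partner of FABP4, was higher in the fats by 5.69 (adjusted p = 7.7e-39). LPL, which frees fatty acids from lipoproteins, was higher by 5.28 (adjusted p = 1.5e-27). RBP7, a retinol binding protein of the same fold as the FABPs, was higher by 5.10 (adjusted p = 1.2e-26).

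In the muscles 33 of the 59 were higher, against 35.4% of all probes, and 17 were lower, against 34.9%. The oxidation list had 15 of 16 higher and a median difference of 1.07, beside 0.02 over all probes. CPT1B, the muscle form of the carnitine transferase that admits fatty acids to mitochondria, was 9.40 ± 0.49 in the muscles (SD, n = 8) and 5.31 ± 0.47 elsewhere (SD, n = 56), a difference of 4.09 (adjusted p = 2.9e-38). ACADVL, the acyl-CoA dehydrogenase for very long chains, was higher by 2.11 (adjusted p = 3.2e-23). Of lipoprotein assembly genes 5 of 6 were lower than the mean of the other tissues, among them APOA1 with a difference of -1.11 (adjusted p = 5.7e-08). Liver and ileum, where the median difference of this list was 8.36 and 2.78, enter that mean.

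In liver 36 of the 59 were higher, against 20.5% of all probes, and 13 were lower, against 28.8%. All 6 lipoprotein assembly genes were higher, with a median difference of 8.36, led by APOC3 (9.85, adjusted p = 2.5e-24) and APOB (8.99, adjusted p = 3.5e-32). Of the oxidation list 13 of 16 were higher. SLC10A1, the transporter that returns bile acids to hepatocytes, was higher by 6.55 (adjusted p = 1.6e-42), while FABP6 was 2.87 to 3.23 there. In ileum 14 of the 59 were higher, against 23.4% of all probes, and 26 were lower, against 29.5%. Lipoprotein assembly gave 5 of 6 higher there, with APOB higher by 5.01 (adjusted p = 9.3e-21) and APOA4 by 3.13 (adjusted p = 5.5e-14). None of the 16 oxidation genes was higher in ileum and 7 were lower, with a median difference of -0.23, beside -0.09 over all probes. The muscles and liver, where 15 and 13 of these 16 were higher, enter the mean of the other tissues. RBP2, the retinol binding protein of the intestine and another member of this protein superfamily, was 6.97 ± 0.70 in ileum (SD, n = 4) and 3.73 ± 0.38 elsewhere (SD, n = 60), a difference of 3.24 (adjusted p = 3.9e-25).

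Between the breeds, FABP4 and both FABP5 probes were higher in Large White over all tissues. The animal means of FABP4 over 16 tissues were 7.34 and 7.45 in LWM and LWF, against 6.89 and 6.68 in IBM and IBF, a difference of 0.61 (95% interval 0.25 to 0.97, adjusted p = 0.015) seen in 14 of 16 tissues. FABP5 had 9.19 and 9.49 in LWM and LWF, against 9.05 and 8.91 in IBM and IBF on probe 1, a difference of 0.37 (95% interval 0.17 to 0.56, adjusted p = 0.0059) in 13 of 16 tissues. On probe 2 the difference was 0.56 (95% interval 0.36 to 0.76, adjusted p = 4.6e-05) in 14 of 16 tissues. These were 3 of 8 probes called, against 12.7% of all probes in either direction. In all 3 the animal means did not overlap, with Large White higher, as for 23.6% of all probes. With the 4 animal means as the unit, none of the 3 passed (adjusted p = 0.205 to 0.348), and 0 of 8 were called with LWF or with IBF left out. In either case the breed term compares LWM with IBM, so these are not separate checks. The difference was 0.45 for FABP4, 0.15 for probe 1 of FABP5 and 0.25 for probe 2. FABP4 did not pass with IBM left out either (0.78, adjusted p = 0.105). An exact permutation test of 2 animals against 2 cannot give a p below 0.33. Breed goes with body weight and age here, which cannot be told apart from it. The piglets came from 2 breeding companies, so origin before weaning may go with breed too.

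Within single tissues 4 of 128 breed contrasts passed, against 1.82% over all probes, of which FABP4 in stomach was the largest and FABP2 in ileum is given above. Stomach FABP4 was 9.04 and 9.70 in Large White and 6.83 and 5.75 in Iberian animals, a difference of 3.08 (SE 0.57, adjusted p = 0.0014) or 8.47-fold, with no overlap. Without the IBF stomach array it was 2.55 (adjusted p = 0.11). The mean of 3 adipocyte genes in stomach was 4.17 and 4.22 in Large White and 4.34 and 4.20 in Iberian animals, which overlapped. The endothelial mean was 6.62 and 6.80 in Large White and 6.46 and 6.09 in Iberian animals, which did not, and that of 3 macrophage genes was 5.82 and 6.03 in Large White and 5.89 and 5.54 in Iberian animals. Their part in the FABP4 difference was not tested. FABP4 did not overlap between breeds in 5 of 16 tissues with Large White higher, against 19.9% over all probes and tissues, and in 1 with Large White lower, against 20.6%. The tissue with Large White lower was blood, with 3.20 and 3.27 in Large White and 4.36 and 3.55 in Iberian animals. Those with Large White higher were stomach, biceps femoris, abdominal fat, diaphragm and ileum. Diaphragm had 10.19 and 10.52 in Large White and 8.93 and 7.39 in Iberian animals, and ileum had 8.04 and 6.14 in Large White and 5.39 and 4.83 in Iberian animals. The differences in diaphragm (2.20, adjusted p = 0.066) and ileum (1.98, adjusted p = 0.11) did not pass. In the fats FABP4 differed by 0.06 and 0.14 between breeds.

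FABP5 in adrenal cortex gave the other breed calls. Probe 1 had 8.81 and 8.85 in Large White and 7.07 and 6.98 in Iberian animals, a difference of 1.81 (SE 0.31, adjusted p = 9.5e-04) or 3.50-fold. Probe 2 had 5.84 and 6.64 in Large White and 4.49 and 4.63 in Iberian animals, a difference of 1.68 (adjusted p = 0.013), which did not pass with LWF left out (1.15, adjusted p = 0.35) or with IBF left out (1.57, adjusted p = 0.065). In adrenal medulla probe 1 had 8.60 and 8.76 in Large White and 8.20 and 7.39 in Iberian animals, and the difference of 0.89 did not pass (adjusted p = 0.51). The mean of 3 chromaffin genes, which mark the medulla, was 8.62 and 9.24 in the adrenal cortex of Large White and 8.02 and 7.01 in that of Iberian animals. It was 9.37 to 10.47 in the adrenal medulla samples, and its part in the FABP5 difference was not tested. The 4 genes of adrenal cortex cells averaged 11.06 and 11.23 in Large White and 10.86 and 10.94 in Iberian cortex. In the adrenal medulla samples they averaged 10.66 to 11.04, and 1.0% of all probes differed between medulla and cortex. The paper could not exclude mixing of cortex and medulla at dissection. The interaction of tissue and breed passed for none of the 8 probes (lowest adjusted p = 0.090, FABP4), against 2.08% of all probes, so that the breed difference was not shown to vary between tissues.

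**Figure D5:**
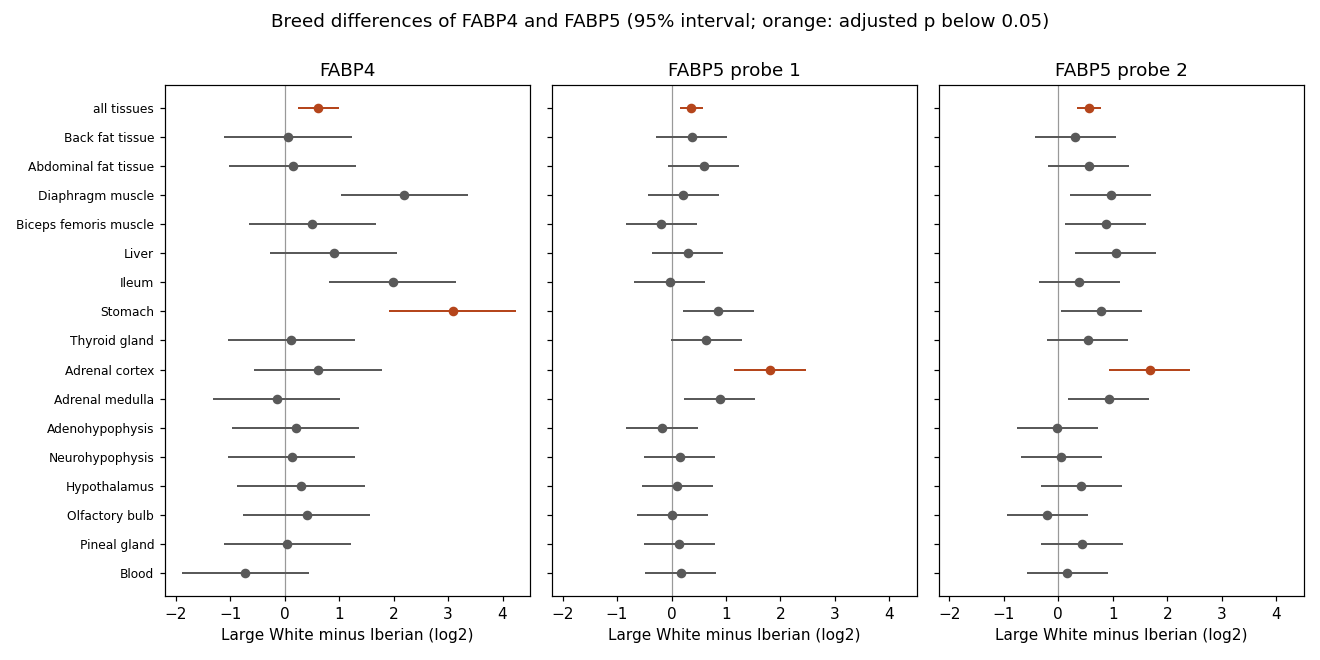
Large White minus Iberian differences (log2) of FABP4 and both FABP5 probes over all tissues and in each tissue. Points are limma estimates and lines 95% intervals, with adjusted p below 0.05 in orange: the difference over all tissues for all 3 probes, FABP4 in stomach (3.08) and FABP5 in adrenal cortex (1.81 and 1.68).

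Between the sexes 0 of 8 probes passed over all tissues with limma, against 1.45% of all probes. FABP6 alone had an unadjusted p under 0.05 (0.011), with males higher by 0.17 and in 12 of 16 tissues (adjusted p = 0.28). Within tissues 3 of 128 sex contrasts passed, against 0.28% over all probes, among them FABP2 in ileum, described above. FABP3 in pineal gland was higher in males by 2.28 (adjusted p = 0.049), with 8.72 and 4.91 in males and 4.47 and 4.60 in females, and without the LWM pineal array the difference was 0.42 (adjusted p = 1.0). This call was also lost with quantile normalization (2.24, adjusted p = 0.056). FABP6 in abdominal fat was 4.78 and 3.91 in males and 2.88 and 2.96 in females, a difference of 1.43 (SE 0.20, adjusted p = 2.7e-05) that did not pass with LWM left out (0.97, adjusted p = 0.14). In back fat FABP6 was 2.94 and 2.85 in males and 3.06 and 2.93 in females. VIL1 was 3.55 and 3.72 in the abdominal fat of males and 3.85 and 3.42 in that of females, which overlapped. The interaction of tissue and sex passed for none of the 8 probes, against 0.125% of all probes.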

How the data were processed

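The authors scanned the arrays with GCOS software, also listed in the submitters' processing notes, ran quality control with the Affy package and applied RMA through libaffy to the whole set. Tool versions were not given in the sources. The deposited values are log2 signals for 24123 probe sets, of which 188 controls were left out. RMA makes the distributions of arrays alike, so that a shift of the whole transcriptome in a tissue would not be seen.

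Members and lists were chosen with earlier results of these data known. Linear models of tissue, breed and sex were fitted in R 4.3.3 using limma 3.58.1, and p-values were adjusted after Benjamini and Hochberg over 23935 probes at an FDR of 0.05. All adjusted p are from limma. Breed and sex within a tissue came from fits with tissue by breed or tissue by sex cells. Summaries used pandas 2.3.3 and numpy 2.4.6, and plots matplotlib 3.10.9, under Python 3.11.15. The fits were tested on simulated data. Precision is limited by the 4 arrays per tissue.

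All members and probes were named. For each member the 3 single-symbol genes with the highest Pearson r over 16 tissue means were named, and of each fatty acid list, genes among the 2 with the largest difference that passed. The brightest probe stood for a gene. Marker lists are means over the genes with a probe. Genes with no probe named for them, such as PLIN1, CD36 and SLC10A2, were not analysed here. The same 4 animals gave all tissues, so the design pairs arrays by animal. With tissue means removed, arrays of the same animal correlated at 0.189 on average over 480 pairs, 385 of them over 0.1. Alternatives were the animal as a block, other covariates and scales, quantile normalization, a filter on dim probes, and leaving out arrays, blood or each animal. Those without the LWF abdominal fat, LWF ileum and IBF stomach arrays were added after the data were seen.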

Additional observations from a re-analysis of the deposited data

Results flagged for a closer look

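Of the 128 groups of 4 arrays, 5 held an array whose gap to the others was large against the range of the group by Dixon's criterion. Chance alone flags about 1 in 20 such groups. FABP1 was 5.93 in the abdominal fat of LWF, beside 2.78 to 2.96 in the other 3 animals, on the array with high hepatocyte genes. FABP1 was also highest in the stomach of LWF, with 4.10 beside 3.66 to 3.70. FABP3 was 8.72 in the pineal gland of LWM, beside 4.47 to 4.91, on the array with high myelin genes. FABP3 was 11.32 in the abdominal fat of IBM, beside 11.47 to 11.50, and probe 2 of FABP5 was 4.69 in the hypothalamus of IBF, beside 5.52 to 5.61. The low FABP2 of the LWF ileum, 3.01 beside 7.44 to 8.56, did not meet the criterion.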

How the results depend on the processing

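The contrasts of FABP1 to FABP7 in their highest tissues kept their direction and their call under all alternatives in which they were tested. With the animal as a replicate block, which uses the paired design, the difference of FABP1 in liver and ileum stayed at 8.01, and 112 of 112 calls on single probes held. Of 1636 alternatives of 122 such calls, 1584 kept direction and call, 51 kept the direction and did not pass, and 1 reversed. The reversed one was the low call of FABP6 in diaphragm. It was 0.00246 (adjusted p = 0.963, limma) on the natural logarithm of the deposited values, a second logarithm, as these are log2 signals already. The cause was not tested. The filter to probes above the median level left the probes of FABP3, FABP4 and FABP5, with 64 FABP contrasts, and 38 list genes. Calls on dropped probes, such as the sex calls of FABP2 and FABP6, were not repeated there. Of 70 calls followed under the filter 69 held, and the sex call of FABP3 in pineal gland did not pass (adjusted p = 0.0615). Under it 31 FABP contrasts were lower in a tissue and 0 differed between sexes within a tissue. In the main fit the same probes had 8 (FABP3), 9 (FABP4), 7 and 7 (FABP5) lower calls. The 38 list genes gave 6 lower in the fats, 8 lower in liver and 8 higher in ileum. Breed calls over all tissues fell to 0 with the means of the 4 animals, and ranged from 0 to 3 when an animal was left out. Within tissues the breed calls ranged from 1 (without IBF) to 7 (without LWM) and the sex calls from 0 (without LWM) to 3. Low levels cannot be told from background, since the file holds no detection calls.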
